A study of Mus musculus with 8 samples.

Results

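Interferon-stimulated genes are the genes that cells switch on when interferon reaches them, and 39 of them were followed here in injured mouse muscle. The members were taken by name from a list of 39 symbols; the rule uses no measured value, but the list was drawn up with earlier results of these data known. Of the 39, 36 had a row of the expression table that names that gene and no other; Gbp2, Ifi44 and Isg15 had none and are not analysed here. The level of 35 passed the filter on low values, out of 15007 genes tested, and the GTPase gene Mx2 fell below it.

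The muscle was the tibialis anterior of male C57BL/6 mice, labelled as 10 weeks old for each sample and as 2 months old for the series. It was frozen for 8 seconds with a chilled metal probe and taken whole 8 days later, and its RNA was measured with Affymetrix Mouse Gene arrays (type 1.0 ST). The flox group (ST2 FL/Foxp3-Cre, 4 samples) carried a floxed ST2 gene and Foxp3-Cre, and the WT group (Foxp3-Cre with wild-type ST2, 4 samples) carried the same Cre, so both groups share the driver. Foxp3 marks regulatory T cells, which suppress immune responses and are drawn to injured muscle. ST2 is the receptor for interleukin-33, and the comparison asks what its loss from those cells does to regenerating muscle. Its gene, Il1rl1, is not analysed here, so the deletion itself was not checked. The labels do not say that the samples came from separate animals, so the p-values rest on a spread between samples that could be technical alone. Because whole muscle was measured, fewer cells of a type and less RNA per cell cannot be told apart.

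Type I interferons bind the receptor made of Ifnar1 and Ifnar2, and type II interferon binds Ifngr1 and Ifngr2. The kinases Jak1, Jak2 and Tyk2 then pass the signal on to transcription factors. Stat2 and Irf9 belong to a complex that binds the interferon-stimulated response element (ISRE), and the gamma-activated site (GAS) is the other DNA element of the pathway. The genes switched on sense foreign nucleic acid, block viral replication, and cut and carry peptides for MHC class I. In injured muscle, the macrophages and other leukocytes that enter the tissue are among the cells able to respond.

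Matches to the ISRE are visible in the promoters of some members. The 250 bases before the transcription start were searched on both strands for the ISRE core (GAAA, any 2 bases, GAAA) and for the GAS core (TTCNNNGAA), in RefSeq promoters of GRCm38.p6. Of the 39 members, 30 matched a promoter entry. The ISRE core occurred in 10 of these 30 (33.3%), against 3.46% of the 27025 genes with an entry and 2.98% of the 32851 promoters. The 10 were Bst2, Gbp2, Gbp3, Ifit1, Ifit3, Isg15, Oas3, Rsad2, Stat2 and Trim30a. The GAS core occurred in 7 of 30 (23.3%), against 8.13% of genes and 7.02% of promoters, and 1 member promoter held an ISRE match and a GAS match that overlapped. The promoters of Ifit1, Ifit3 and Rsad2 are shown because these members had the widest ranges over the arrays, given further on. Each is written on the gene's own strand, with capitals marking the ISRE core, which here lies on the opposite strand and so reads as its reverse complement.
Ifit1: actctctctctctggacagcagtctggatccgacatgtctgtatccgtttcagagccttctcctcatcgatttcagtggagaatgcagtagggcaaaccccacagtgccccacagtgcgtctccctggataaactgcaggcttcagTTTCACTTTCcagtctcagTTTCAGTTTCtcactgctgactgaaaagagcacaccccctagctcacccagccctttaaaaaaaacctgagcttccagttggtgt
Ifit3: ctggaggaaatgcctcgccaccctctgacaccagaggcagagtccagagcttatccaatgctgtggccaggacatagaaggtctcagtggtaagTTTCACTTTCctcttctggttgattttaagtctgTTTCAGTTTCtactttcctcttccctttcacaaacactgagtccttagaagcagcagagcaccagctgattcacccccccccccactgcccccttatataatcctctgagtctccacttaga
Rsad2: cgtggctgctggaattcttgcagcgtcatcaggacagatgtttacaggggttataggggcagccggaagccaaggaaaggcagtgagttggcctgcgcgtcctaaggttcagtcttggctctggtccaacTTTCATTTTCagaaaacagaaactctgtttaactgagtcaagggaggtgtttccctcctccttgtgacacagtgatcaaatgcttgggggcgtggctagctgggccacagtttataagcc
The windows are chr19:34640639-34640888 on the plus strand for Ifit1, chr19:34583279-34583528 on the plus strand for Ifit3 and chr12:26456453-26456702 on the minus strand for Rsad2. The matches begin 104 and 85 bases before the start of Ifit1, 156 and 122 bases before that of Ifit3, and 120 bases before that of Rsad2. A match to these letters is a description of the sequence and does not show binding.

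Most members had a slightly higher mean in flox than in WT muscle, and none passed the test. With limma and Benjamini-Hochberg adjustment over all 15007 genes, 0 of 35 members were called higher and 0 lower, where 0% of all genes were called higher and 0% lower. The members' adjusted p-values lay between 0.912 and 0.995. At an unadjusted p under 0.05, 0 members were higher and 0 lower, beside 2.03% of all genes higher and 1.77% lower. The smallest unadjusted p of a member was 0.0828, for Oas2. In 0 of 35 members did all flox arrays lie above or all below the WT arrays, beside 1.14% of all genes apart in the higher direction and 0.826% in the lower. The mean was higher in flox for 31 of 35 members (88.6%), against 48.8% of all genes. Ifit1, Ifit2, Ifit3 and Rsad2 were the 4 tested members with a lower mean. The median difference of the members, flox minus WT on the log2 scale, was 0.11, with a range from -0.09 for Ifit3 to 0.28 for Dhx58, and the median over all genes was -0.0025.

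By the median, the members varied more from array to array than all genes tested did. Their median range over the 8 arrays was 0.64 on the log2 scale, against 0.32 for all genes tested, and their median SD within a group was 0.23 against 0.11. The range was widest for Ifit1 (1.29), Ifit3 (1.26) and Rsad2 (1.13) and narrowest for the immunoproteasome subunit Psmb9 (0.21). The SD was larger among flox than among WT samples in 27 of 35 members, and in 9923 of the 15007 genes. Members with an ISRE core in the promoter window had a median range of 0.78 (n = 8, from 0.34 to 1.29) and a median difference of 0.04. Members whose window held no such match had a median range of 0.56 (n = 19, from 0.21 to 0.98) and a median difference of 0.11, and the ranges of the groups of genes overlap.

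The members moved together along the arrays. For each member the log2 level was centred on its mean over the 8 arrays, and the 36 centred values of an array were averaged. This list mean was 0.10, 0.16, 0.25 and -0.30 on flox arrays 1 to 4, and -0.13, -0.04, -0.24 and 0.21 on WT arrays 1 to 4. Flox arrays 1 to 3 and WT array 4 were thus high, whereas flox array 4 and WT array 3 were low, so each genotype spans most of the range. The group means differed by 0.10 (SE 0.15, n = 4 and 4), which is 1.07-fold and smaller than the SD of either group (0.25 in flox and 0.19 in WT). That difference became 0.22 when flox array 4 was left out and 0.19 when WT array 4 was. Leaving out flox array 2 gave 0.07, flox array 3 gave 0.03 and WT array 3 gave 0.04.

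**Figure D1:**
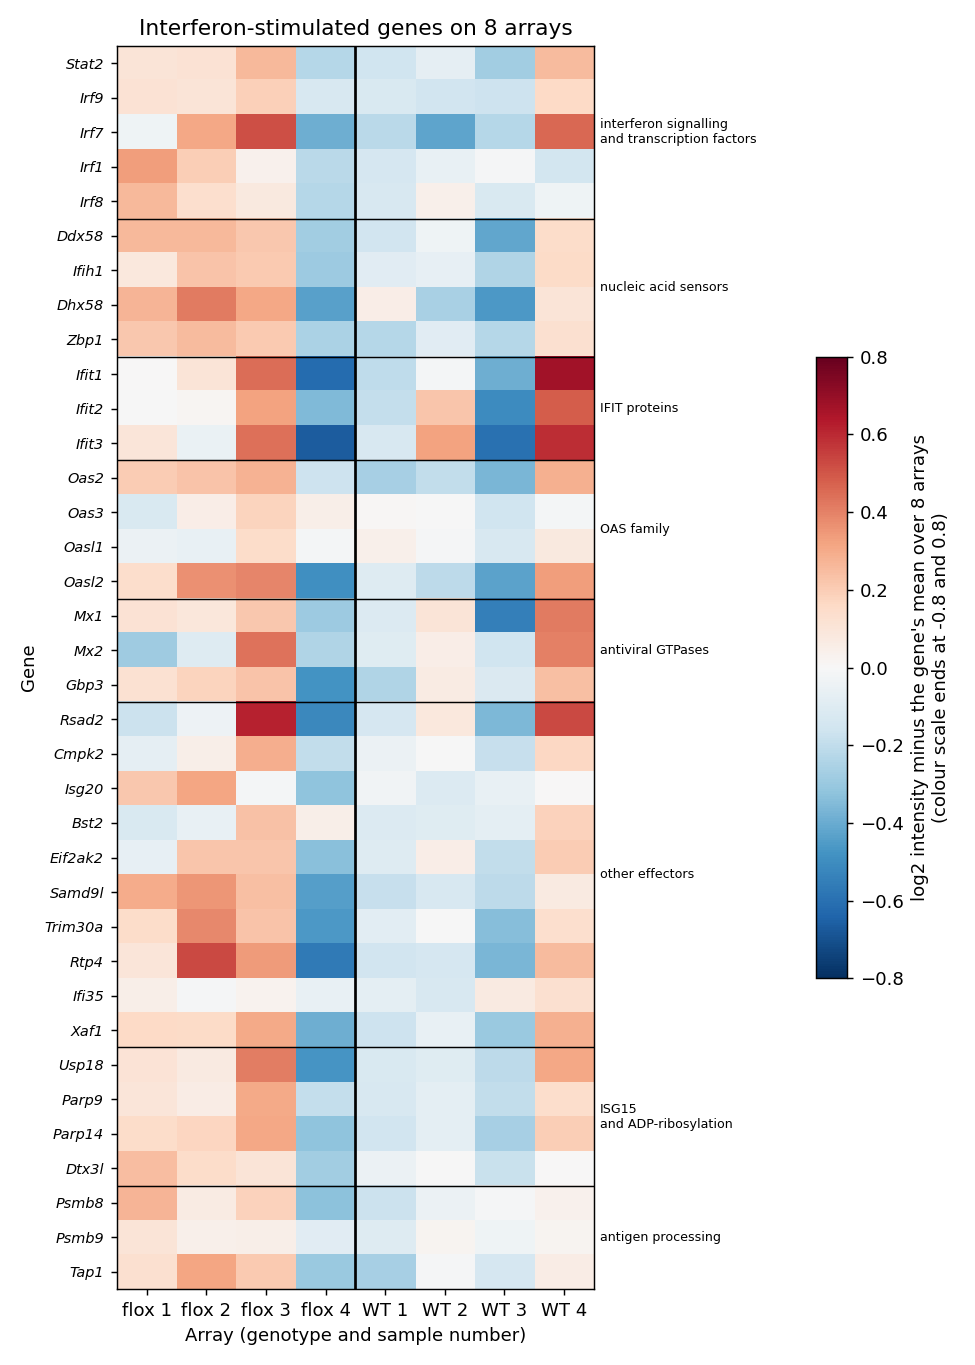
The 36 members with a row, 1 per line and grouped by role, on the 8 arrays; colour is the log2 intensity minus the gene's mean over the arrays, from -0.8 to 0.8. Flox array 4 is the lowest of the 8 arrays for 21 members, and WT array 4 is the highest WT array for 32. The same was not counted over all genes.

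Single arrays held the extremes for most members. Flox array 3 was the highest of all 8 arrays in 14 of 36 members and above the WT mean in 36. Flox array 4 was the lowest of all 8 in 21 members and lower than every WT array in 22. Its distance from the mean of flox arrays 1 to 3 ran from -0.89 for Rtp4, a chaperone of receptors in the secretory pathway, to 0.03 for Bst2, with a median of -0.47. It was below 0 in 34 members, and the median over all genes was -0.0016. WT array 4 was the highest WT array in 32 members, and its distance from the mean of the other WT arrays had a median of 0.31, against 0.02 over all genes. How often each array was highest or lowest was not counted over all genes, so these counts of members have no background share.

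Genes of interferon signalling and transcription (Stat2, Irf9, Irf7, Irf1 and Irf8) were all higher on average in flox, by 0.12 to 0.20, with SEs from 0.09 to 0.22. Irf7, the master regulator of type I interferon genes (probe set 10569102), measured 8.53, 8.88, 9.08 and 8.17 on flox arrays 1 to 4 and 8.35, 8.14, 8.33 and 9.03 on WT arrays 1 to 4. Flox array 3 and WT array 4 stood highest and were nearly level, and flox array 4 lay among the lowest. The difference was 0.20 (SE 0.22, 95% interval -0.28 to 0.68). Irf1, which drives many targets of type II interferon (probe set 10376060), measured 8.02, 7.88, 7.71 and 7.47 in flox and 7.55, 7.62, 7.67 and 7.53 in WT. Flox arrays 1 to 3 lay above every WT array and flox array 4 below them all, while the WT arrays were close together. The difference was 0.17 (SE 0.10, 95% interval -0.06 to 0.41), and the other, dimmer row that names Irf1 differed by -0.02. Irf8, a myeloid and lymphoid transcription factor, resembled Irf1: flox array 4 was 0.38 below the other flox arrays on average, and WT array 4 stood 0.03 above the other WT arrays. For Irf7 that WT step was 0.75.

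Each of the 4 sensors of foreign nucleic acid (Ddx58, Ifih1, Dhx58 and Zbp1) had a higher mean in flox, by 0.12 to 0.28. Dhx58, which encodes the RNA sensor LGP2 (probe set 10391207), measured 8.03, 8.16, 8.06 and 7.32 in flox and 7.80, 7.49, 7.29 and 7.86 in WT. Flox arrays 1 to 3 lay above all WT arrays, and flox array 4 was next to the lowest of the 8. The difference of 0.28 (SE 0.19, 95% interval -0.13 to 0.69) became 0.47 without flox array 4. Zbp1, a sensor of Z-form nucleic acid that can trigger cell death (probe set 10490150), measured 8.51, 8.55, 8.51 and 8.04 in flox and 8.07, 8.21, 8.07 and 8.43 in WT. Again 3 flox arrays stood above every WT array and flox array 4 below them all. Its difference was 0.21 (SE 0.12), and 0.33 without flox array 4.

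The IFIT proteins bind viral RNA and restrain its translation, and all 3 members of this class had means at or slightly below WT, except that Ifit2 turned to 0.0079 under cyclic loess normalization. Ifit1 (probe set 10462623) measured 8.27, 8.37, 8.71 and 7.65 in flox and 8.06, 8.25, 7.87 and 8.94 in WT. Ifit3 (probe set 10462618) measured 8.57, 8.41, 8.91 and 7.80 in flox and 8.34, 8.79, 7.87 and 9.06 in WT. In both genes WT array 4 was the highest of the 8 and flox array 4 the lowest, and the groups overlap between those ends. Ifit1 differed by -0.03 (SE 0.25, 95% interval -0.58 to 0.52) and Ifit3 by -0.09 (SE 0.27, 95% interval -0.69 to 0.51). Ifit2, the third of them, differed by -0.0072 (SE 0.20). These intervals do not show that the IFIT genes are alike in both genotypes. The sign rested on single arrays: without flox array 4 the difference was 0.17 for Ifit1 and 0.11 for Ifit3, and without WT array 4 it was 0.19 and 0.09.

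**Figure D2:**
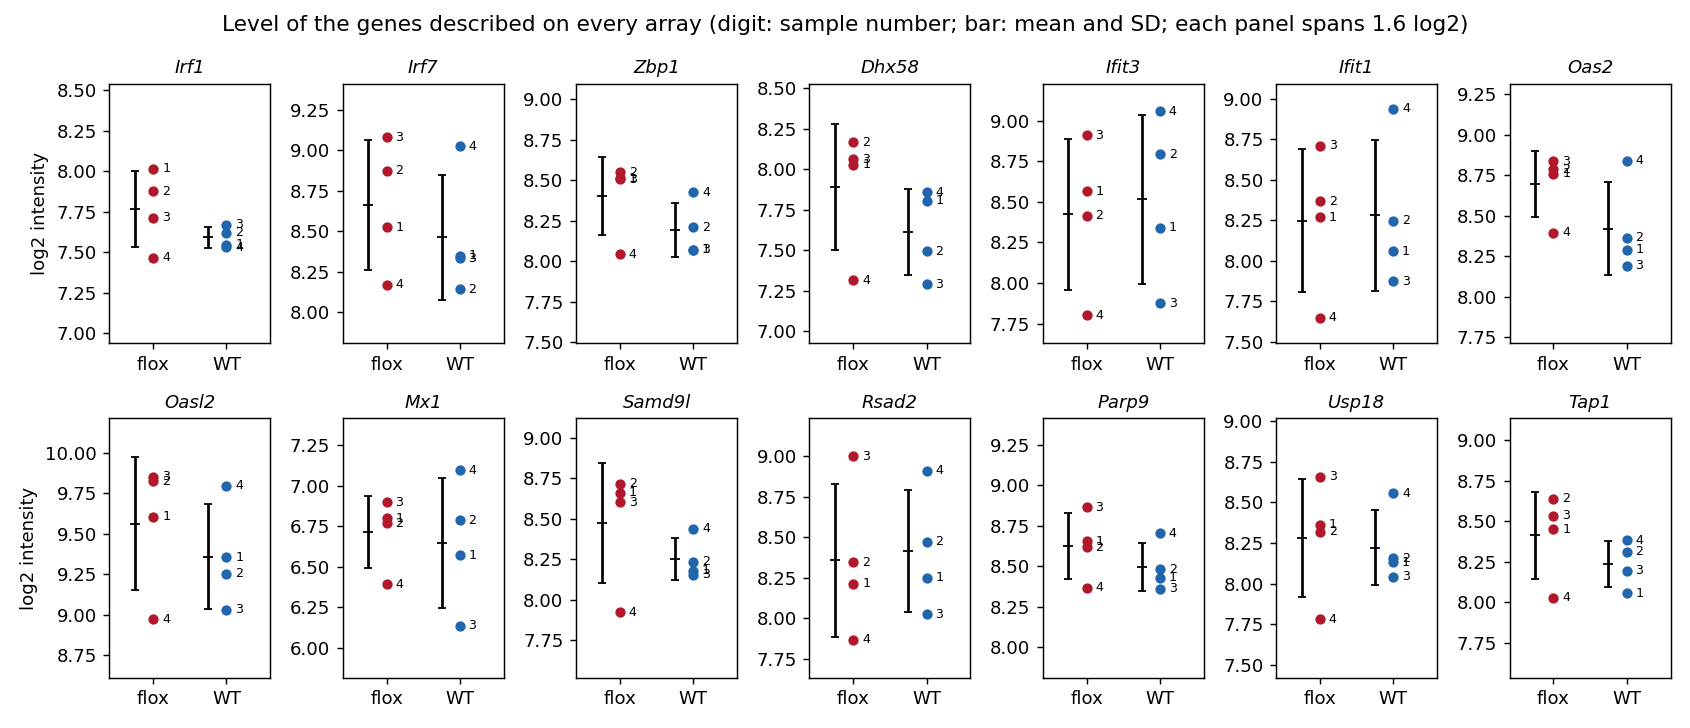
Log2 intensity of 14 members on each array, with the genotype on the horizontal axis, the sample number beside each point and a bar for the mean and SD (n = 4); every panel spans 1.6 log2 units. Flox array 4 is the lowest flox array in every panel. Ifit1, Ifit3, Mx1 and Oas2 peak on WT array 4, where Oas2 is nearly level with flox array 3.

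The OAS family makes or resembles the enzymes that signal viral RNA to RNase L, and Oas2, Oas3, Oasl1 and Oasl2 all had higher means in flox, by 0.0099 to 0.27, although Oasl1 turned to -0.0022 under quantile normalization. Oas2 (probe set 10533198), the member with the smallest p, measured 8.76, 8.79, 8.84 and 8.40 in flox and 8.29, 8.36, 8.19 and 8.84 in WT. Every flox array lay above WT arrays 1 to 3, and WT array 4 was level with the highest flox array. The difference was 0.27 (SE 0.14, 95% interval -0.04 to 0.59), with an adjusted p of 0.912 in limma; it was 0.41 without WT array 4 (unadjusted p = 0.0040, adjusted p = 0.950). Oasl2 (probe set 10524621) measured 9.60, 9.82, 9.85 and 8.97 in flox and 9.35, 9.25, 9.03 and 9.80 in WT. It followed the common course, low on flox array 4 and high on WT array 4, and differed by 0.20 (SE 0.20). Oas3 and Oasl1 moved little: flox array 4 stood 0.01 above and 0.03 below the other flox arrays, respectively.

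The antiviral GTPases Mx1 and Gbp3 block incoming virus or bind the membranes that enclose microbes, and their differences were 0.07 (SE 0.18) and 0.03 (SE 0.16; -0.0069 under quantile normalization). Mx1 (probe set 10441233) measured 6.80, 6.77, 6.90 and 6.39 in flox and 6.57, 6.79, 6.14 and 7.10 in WT. WT arrays 3 and 4 were its lowest and highest of the 8. Mx2, which was too dim to be tested, measured 5.81, 6.00, 6.53 and 5.86 in flox and 6.00, 6.15, 5.94 and 6.51 in WT. It too was highest on flox array 3 and WT array 4. The mean of the GTPase class differed by -0.0014 (SE 0.19).

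Of the 10 other effectors with a row, 9 had a higher mean in flox, of which Ifi35 turned to -0.013 under quantile and -0.0020 under cyclic loess normalization. Rsad2 encodes viperin, which makes a chain terminator of viral RNA (probe set 10399710), and measured 8.21, 8.35, 9.0 and 7.87 in flox and 8.25, 8.47, 8.02 and 8.91 in WT. Flox array 3 and WT array 4 stood well above the rest, and the difference was -0.06 (SE 0.24). Samd9l, a restriction factor of poxviruses (probe set 10542911), measured 8.66, 8.72, 8.60 and 7.92 in flox and 8.18, 8.24, 8.16 and 8.44 in WT. Here flox arrays 1 to 3 lay above every WT array and flox array 4 below them all. The difference of 0.22 (SE 0.16) became 0.41 (SE 0.08) without flox array 4. The rest of the class ran from 0.0037 for Ifi35 to 0.20 for Rtp4, and included the nucleotide kinase Cmpk2 (0.03), the exonuclease Isg20 (0.10), the tether of budding virus Bst2 (0.05), the translation-blocking kinase Eif2ak2 (0.02), Trim30a (0.15) and Xaf1 (0.11).

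Usp18, which removes the ISG15 protein from its targets and damps the type I receptor (probe set 10541307), measured 8.36, 8.32, 8.66 and 7.78 in flox and 8.13, 8.16, 8.04 and 8.56 in WT. It was lowest on flox array 4, and its difference of 0.06 (SE 0.17) became 0.23 without that array. Parp9, a partner of the ubiquitin ligase Dtx3l (probe set 10435457), measured 8.65, 8.61, 8.86 and 8.37 in flox and 8.43, 8.48, 8.36 and 8.70 in WT. Flox arrays 1 to 3 lay above WT arrays 1 to 3, with flox array 4 and WT array 4 crossing over. Parp9 differed by 0.13 (SE 0.11), the ADP-ribosyltransferase Parp14 by 0.15 (SE 0.14) and Dtx3l by 0.11 (SE 0.10).

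The antigen processing members Psmb8, Psmb9 and Tap1 supply peptides to MHC class I, and all 3 had higher means in flox. Tap1, a subunit of the peptide transporter (probe set 10444244), measured 8.45, 8.64, 8.54 and 8.03 in flox and 8.06, 8.31, 8.19 and 8.38 in WT. Flox arrays 1 to 3 lay above every WT array. Its difference of 0.18 (SE 0.13, 95% interval -0.10 to 0.45) became 0.31 without flox array 4. The immunoproteasome subunits Psmb8 and Psmb9 differed by 0.10 (SE 0.12) and 0.05 (SE 0.06).

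**Figure D3:**
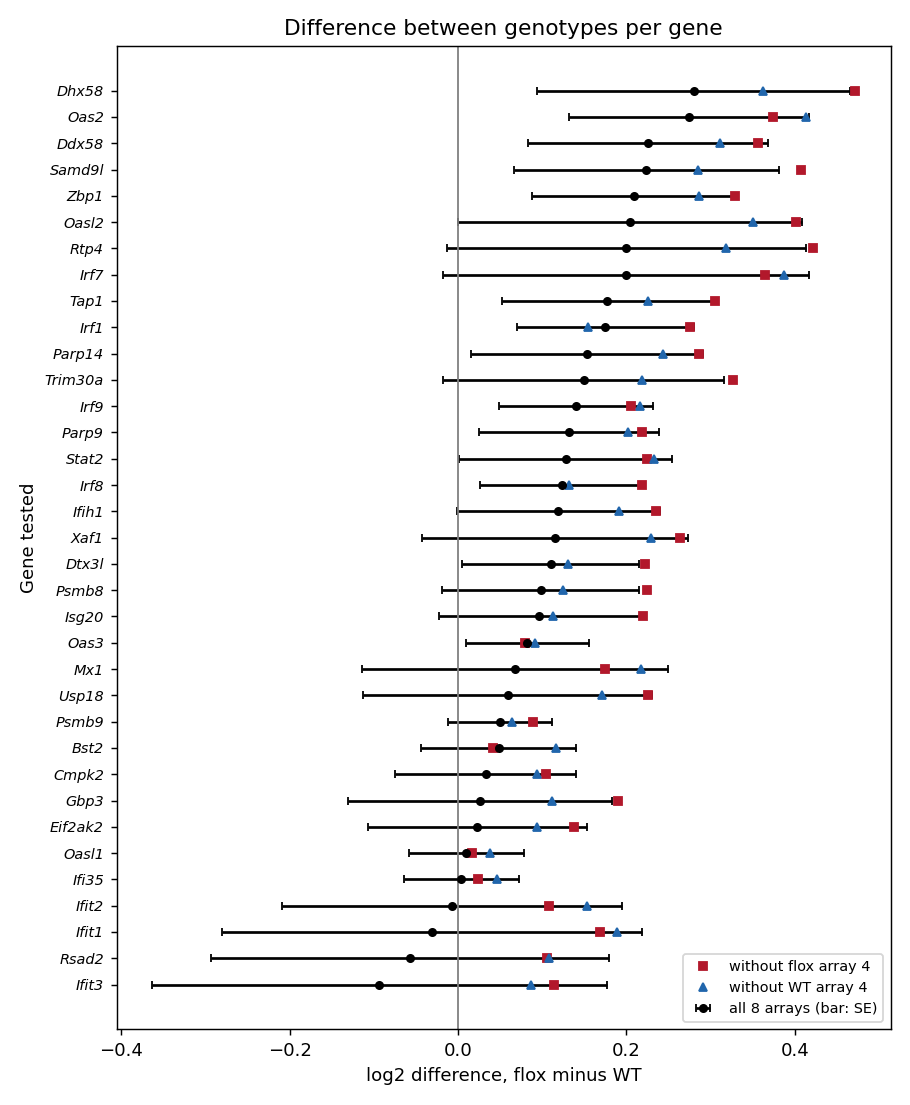
Log2 difference, flox minus WT, of the 35 members tested, over all 8 arrays with its SE (black circles), and again with either flox array 4 (squares) or WT array 4 (triangles) left out. Leaving out either array puts all 35 differences above 0.

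In all 8 role classes the mean was highest among the WT arrays on WT array 4 and lowest among the flox arrays on flox array 4, with steps that ranged in size. Flox array 4 stood below the other flox arrays by 0.46 to 0.83 in the IFIT genes, 0.46 to 0.77 in the sensors and 0.16 to 0.51 in the antigen processing genes. WT array 4 stood above the other WT arrays by 0.64 to 0.88 in the IFIT genes, 0.34 to 0.60 in the GTPases and 0.29 to 0.34 in the sensors. In the antigen processing genes that step was 0.06 to 0.19, and Irf1 was the single member of 36 below 0, at -0.08. The class means traced this out: the IFIT mean was 0.58 on WT array 4 and 0.40 on flox array 3, beside 0.03 and 0.02 on flox arrays 1 and 2. The antigen processing mean was 0.04 on WT array 4, beside 0.17, 0.14 and 0.15 on flox arrays 1 to 3. No test of these differences between classes was made.

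**Figure D4:**
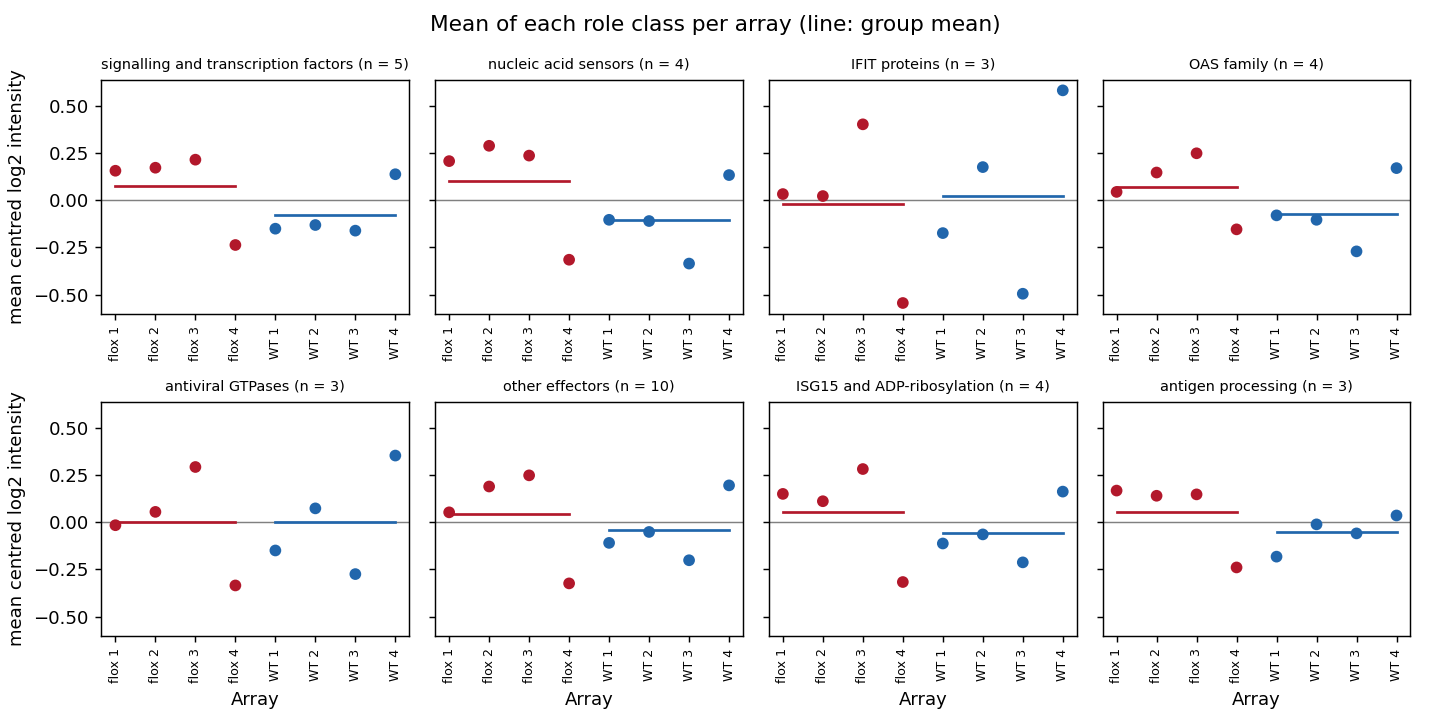
Mean centred log2 intensity of each role class on the 8 arrays, with a line at each group mean. All classes dip on flox array 4; the IFIT class reaches 0.58 on WT array 4, and the antigen processing class 0.04.

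Without flox array 4 the higher direction covered all 35 members tested (100%, against 49.1% of all genes), and the median difference was 0.22. At an unadjusted p under 0.05, 18 of 35 (51.4%) were higher and 0 lower, while 10.6% of all genes were higher and 9.50% lower. They were Irf9, Irf1 and Irf8, all 4 sensors, Oas2 and Oasl2, Isg20, Samd9l, Trim30a and Rtp4, Parp9, Parp14 and Dtx3l, and Psmb8 and Tap1; no IFIT gene or GTPase was among them. In 11 of 35 (31.4%) the 3 remaining flox arrays lay above all WT arrays, as in 8.63% of all genes. After adjustment over all genes 0 members were called by limma, where 0.0133% of all genes were called higher. The smallest adjusted p was 0.122, for Samd9l. Leaving out WT array 4 instead also gave 35 of 35 members a higher mean (52.0% of all genes did), with a median of 0.19. Then 3 members (8.57%), Oas2, Irf9 and Zbp1, had an unadjusted p under 0.05, beside 1.79% of all genes higher, and 0 were called after adjustment. These sets of arrays were chosen after their values were known, and neither array has a label that sets it apart.

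Other genes of the pathway mostly had a higher mean in flox too. Of a list of 110 further pathway genes, 92 had a row and 87 were tested: 73 (83.9%) had a higher mean in flox, against 48.8% of all genes, with a median difference of 0.10. By limma 0 were called in either direction after adjustment. At an unadjusted p under 0.05, 1 was higher (1.15%) and 0 lower, beside 2.03% and 1.77% of all genes. Without flox array 4, 44 of 87 (50.6%) were higher at that p, beside 10.6% of all genes, and the median difference was 0.18; in 20 (23%) the 3 remaining flox arrays lay above all WT arrays, beside 8.63% of all genes.

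The interferons themselves did not share the direction. Of 9 ligand genes with a row, Ifna4, Ifnb1, Ifne and Ifnk were below the filter, and 1 of the 5 tested had a higher mean in flox. Ifng, the type II interferon, measured 6.63, 6.52, 7.01 and 6.87 in flox and 6.76, 6.71, 6.77 and 6.78 in WT, a difference of 0.0030 (SE 0.10). All of these levels are close to the filter, at 6.35. Ifna2 differed by -0.13 (SE 0.12), Ifnab by -0.05 (SE 0.07), Ifnz by -0.06 (SE 0.06) and Ifnl2, a type III interferon, by -0.13 (SE 0.08).

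Of 6 receptor genes, 5 had a higher mean in flox, of which Ifngr2 turned to -5.2e-04 under quantile normalization. Ifnar2, a chain of the type I receptor, measured 10.02, 10.02, 9.77 and 9.37 in flox and 9.55, 9.69, 9.59 and 9.66 in WT. Flox arrays 1 and 2 were its highest, and the WT arrays lay within 0.14 of each other, so the receptor did not show the peak that the IFIT genes had on WT array 4. Ifnar2 differed by 0.17 (SE 0.13), Ifnar1 by 0.14 (SE 0.12), Ifngr1 by 0.14 (SE 0.09) and Il10rb, which serves type III interferon, by 0.16 (SE 0.14). Ifngr2 (0.02, SE 0.06) and Ifnlr1 (-0.07, SE 0.09) were nearer 0. Among the kinases, Tyk2 differed by 0.16 (SE 0.08), Jak1 by 0.02 (SE 0.08) and Jak2 by -0.05 (SE 0.08).

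All 11 upstream sensors and adaptors tested had a higher mean in flox, led by the endosomal receptors Tlr7 (0.24, SE 0.18) and Tlr3 (0.17, SE 0.08) and by Myd88 (0.23, SE 0.13), the adaptor of Tlr7. Of 9 negative regulators, 6 were higher, among them the phosphatases Ptpn6 (0.14, SE 0.10) and Ptpn2 (0.08, SE 0.08) and the RNA editor Adar (0.12, SE 0.08). Of 44 other targets of interferon, 40 were higher, among them the lysosomal reductase Ifi30 (0.26, SE 0.13) and the lectin Lgals9 (0.25, SE 0.14). Nampt, which makes the precursor of NAD, was the single pathway gene whose groups were apart, 1 of 87 (1.15%) beside 0.826% of all genes apart in that direction: its 4 flox arrays measured 10.37 to 10.44 and its 4 WT arrays 10.46 to 10.70, a difference of -0.13 (SE 0.07). In the MHC class I pathway 7 of 8 were higher. The exception was Nlrc5, whose sign depended on the row: its brightest differed by -0.12 and its other rows by -0.14 to 0.40. Psmb10, the remaining immunoproteasome subunit, measured 8.84, 8.75, 8.72 and 8.52 in flox and 8.60, 8.45, 8.45 and 8.55 in WT. Its difference of 0.20 (SE 0.08) had an unadjusted p of 0.0264 and an adjusted p of 0.912 in limma. Tapbp, which helps load peptides, differed by 0.18 (SE 0.10) and B2m, the light chain of MHC class I, by 0.14 (SE 0.09).

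Markers of cells that could carry these transcripts were read on the same centred scale. The 12 macrophage and monocyte markers with a row, of 15 in the list, were all above the filter and all had a higher mean in flox. Their mean was 0.39, 0.45, 0.05 and -0.46 on flox arrays 1 to 4 and between -0.16 and 0.01 on the WT arrays. Their summed intensity was 10892 to 18116 in flox and 12240 to 15097 in WT. On flox array 4 the means of the fibro-adipogenic progenitor (-0.32), neutrophil (-0.26) and natural killer cell markers (-0.22) were also low, as was that of the members (-0.30). Of these lists, 5 of 8 neutrophil markers and 6 of 8 natural killer cell markers were below the filter. The remaining lists were closer to their mean over the arrays on flox array 4. Dendritic cell markers read -0.12, T cell -0.097, endothelial -0.06 and skin -0.06. Muscle fibre markers read 0.0037, B cell 0.02 (2 of 4 below the filter) and plasmacytoid dendritic cell 0.05. On WT array 4 the macrophage mean was -0.13 and the members' 0.21, and on flox array 3 they were 0.05 and 0.25. Of 11 T cell markers 8 had a row, Cd3d being below the filter, and their summed intensity was 902 to 1186 in flox and 875 to 890 in WT. Of the 8, 7 had a higher mean in flox. The T cell list mean was 0.20, 0.28, 0.05 and -0.097 on flox arrays 1 to 4 and between -0.118 and -0.100 on the WT arrays. No test of this list was made. Of 9 dendritic cell markers, 8 had a higher mean in flox, and Clec9a was below the filter. Plasmacytoid dendritic cells are known as strong producers of type I interferon. Of their 8 markers, 6 entered the mean, which left out Bst2 as a member; 2 were higher in flox and Ccr9 was below the filter. Their mean was between -0.05 and 0.05 on the flox arrays and between -0.07 and 0.09 on the WT arrays. Skeletal muscle fibre markers, which check the labelled tissue, summed to 87548 to 92382 in flox and 84853 to 94135 in WT.

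WT array 4 also carried keratinocyte transcripts. The 7 skin markers with a row, of 8 in the list, had a mean of 1.54 on that array and of -0.36 to -0.06 on the other 7. Their summed intensity was 592 to 692 in flox and 620 to 2225 in WT, and Krt14, Krt1 and Krtdap were below the filter on average. The part of these marker lists in the members' values was not tested. Without WT array 4 the differences of all 35 members tested were above 0. The same held without flox array 4, and neither result tests what skin transcripts add to the members' values.

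**Figure D5:**
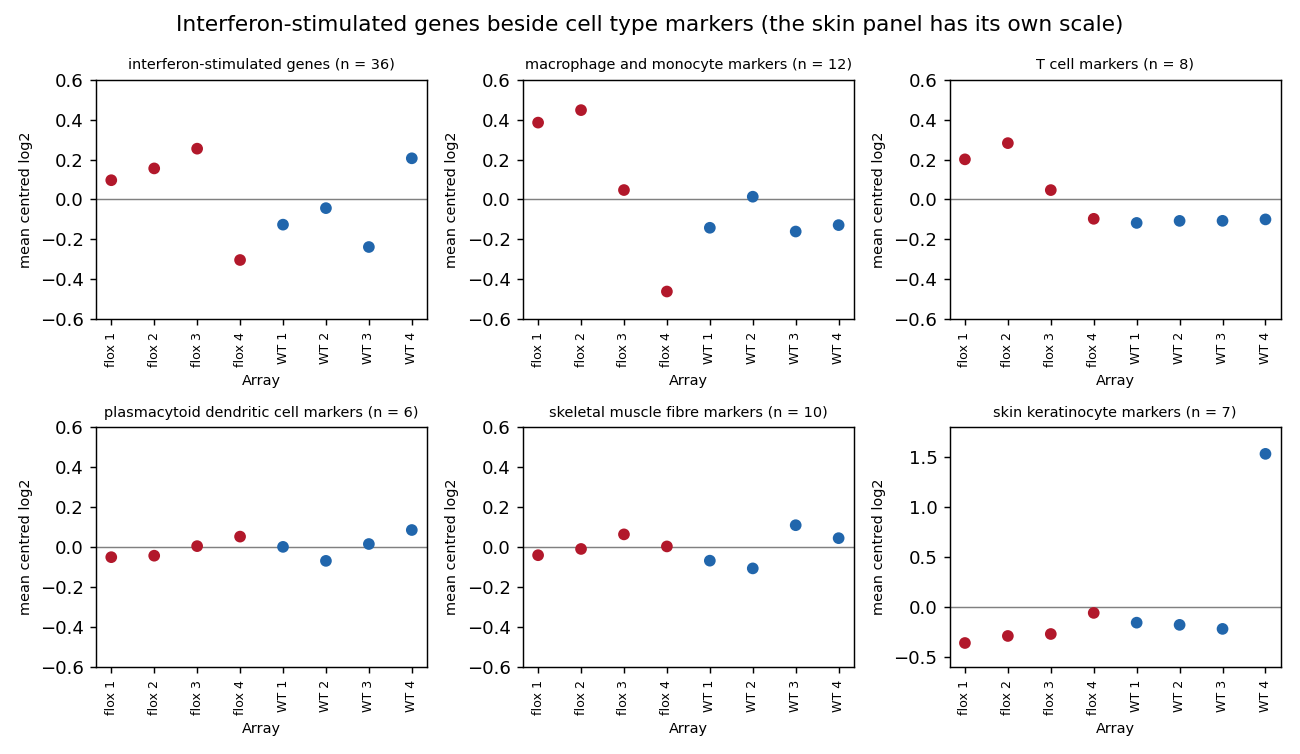
Mean centred log2 intensity per array of the interferon-stimulated genes and of some of the marker lists. Those drawn are macrophage and monocyte, T cell, plasmacytoid dendritic cell, skeletal muscle fibre and skin, with the skin list on a scale of its own. Macrophage markers fall to -0.46 on flox array 4 as the members fall to -0.30, and on WT array 4 the members read 0.21, macrophage markers -0.13 and skin markers 1.54.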

How the data were processed

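Whole-muscle RNA of 8 samples was hybridised to 1 array each. The deposited values are intensities on a linear scale, made with RMA in Affymetrix Power Tools per the submitters' processing notes, from 24922 probe-set rows, of which 21425 named 1 gene, 1399 several and 2098 none; array medians were 185 to 189. RMA adjusts background and makes arrays alike in distribution, so differences are relative to the other genes of an array. No 2 arrays shared more than 14 identical values. The authors' intensities were used without rescaling, as log2. The brightest row of each gene was kept (Irf1 alone among the members had 2), and genes with a mean under the 25th percentile (log2 6.35) were left out. Flox was compared with WT by limma 3.58.1 in R 4.3.3, with an empirical Bayes prior, no covariate, all 8 samples and Benjamini-Hochberg adjustment over 15007 genes at 0.05. The procedure was tested on simulated data. The number of arrays limits precision.

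The members and lists were chosen with earlier results of these data known. Values on every array are given, in each role, for the tested member with the smallest unadjusted p and the member with the widest range; ligands, receptors and kinases were named where they had a row, and in other pathway classes the 3 genes with the smallest unadjusted p. Promoters printed are those of the members that held an ISRE core and ranged most widely. Mx2, Nlrc5 and the array-by-array values of Ifng, Ifnar2, Nampt and Psmb10 were added after their values were seen. Alternatives were 3 normalizations, other filters, averaged rows, a pseudocount of 16, a replicate block, a trended robust prior and each sample left out.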

Additional observations from a re-analysis of the deposited data

Results flagged for a closer look

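Of 142 sets of 4 values, 16 held a sample whose gap to its nearest neighbour was an unusually large share of the set's range. By chance the rule picks about 1 in 20 sets if they are independent. These sets share the same arrays, and class means reuse the same genes, so a single array can flag many sets. The count therefore cannot be set against that share. Among flox arrays, array 4 lay that far below the rest in Ddx58 (gap 0.919 of the range), Dhx58 (0.837), Zbp1 (0.917), Gbp3 (0.852) and Samd9l (0.855). The same held for Tapbp (0.912), which helps load MHC class I, and for the class means of the transcription factors (0.870), the sensors (0.866) and antigen processing (0.933). Among WT arrays, array 4 stood far above the rest in Irf9 (0.866), Bst2 (0.887), Nampt (0.845) and the transcription factor mean (0.900). WT array 3 lay far below the rest in Oas3 (0.841), and WT array 2 far above them in Ifnab (0.920) and Ifnl2 (0.904).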

How the results depend on the processing

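Under the 3 normalizations, the other filters, averaged rows, the pseudocount and the trended prior, 0 members were called and 28 to 31 of 35 had a higher mean in flox (27 of 30 with the 50th percentile filter, which left 30 members), their median difference was 0.09 to 0.13 and the list mean differed by 0.08 to 0.10. Leaving out 1 sample at a time gave 0 to 18 members with an unadjusted p under 0.05 in the higher direction, 0 to 11 with groups apart, 24 to 35 with a higher mean, a median of 0.06 to 0.22, and 0 to 2 genes of all genes called higher; the cause was not tested. The titles number the samples in both groups, but the labels do not say whether the numbers pair them. Deviations of same-numbered samples correlated at -0.0017, 0.35, 0.25 and 0.04, and those of differently numbered samples at -0.37 to 0.32. These values do not settle whether the numbers pair samples. With the replicate block 0 members were called and 31 had a higher mean, as without it, and 422 genes against 304 had an unadjusted p under 0.05 in the higher direction.

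Small differences changed sign. Under quantile normalization Oasl1 read -0.0022, Gbp3 -0.0069, Ifi35 -0.013 and Ifngr2 -5.2e-04, and under cyclic loess Ifit2 read 0.0079 and Ifi35 -0.0020. With 1 sample left out, the difference ranged from -0.18 to 0.19 for Ifit1, -0.18 to 0.15 for Ifit2, -0.31 to 0.11 for Ifit3, -0.27 to 0.11 for Rsad2, -0.10 to 0.22 for Mx1, -0.049 to 0.19 for Gbp3, -0.067 to 0.23 for Usp18, -0.058 to 0.10 for Cmpk2, -0.022 to 0.12 for Bst2, -0.047 to 0.14 for Eif2ak2, -0.038 to 0.047 for Ifi35 and -0.037 to 0.038 for Oasl1. The same range was -0.074 to 0.0014 for Ifnab, -0.080 to 0.082 for Ifng, -0.024 to 0.051 for Ifngr2 and -0.028 to 0.091 for Jak1. The cause was not tested.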
